A study of Mus musculus with 12 samples.

Results

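The genes described here are the mouse zinc finger genes Zfp900 to Zfp999, taken as every protein-coding gene of GENCODE M21 whose symbol is Zfp followed by 3 digits, the first of which is 9. There are 63 of them among 55573 genes with a row in the count tables, of which 21980 are protein-coding, and all 63 have a row. The libraries were made from poly(A) RNA of single fully grown oocytes at the germinal vesicle stage, the prophase-arrested state before meiotic maturation, to test normalisation by spike-in RNA against the number of amplification cycles and the amount of input. The oocytes came from 1 healthy B6D2F1 female aged 12 weeks, for which no engineered allele is stated, and were 8 in number, 6 sequenced whole and 2 whose lysates were diluted. They were released from the ovary in M2 medium with 2.5 μM of milrinone, a phosphodiesterase inhibitor that holds oocytes in prophase arrest. Whole oocytes were amplified for 10, 14 or 18 cycles (n = 2 each), and portions of 1/2, 1/4 and 1/8 of an oocyte (n = 2 each) for 18 cycles. ERCC molecules, synthetic spike-in RNAs, were added in equal amount to every lysate or portion. Which diluted oocyte gave which portion was not stated in the sources used here. Since the 6 portions came from 2 oocytes, some portions of different size share an oocyte. The p-values measure only the spread between these libraries.

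KRAB zinc finger proteins bind DNA through tandem C2H2 fingers, each a short loop held around a zinc ion by a pair of cysteines and a pair of histidines, and their KRAB domain recruits TRIM28 (KAP1) with the histone methyltransferase SETDB1 and HP1 proteins to silence chromatin. The family has expanded in clusters that evolve with the retrotransposons it silences, and in the oocyte and early embryo maternal ZFP57 and ZFP445 protect methylation at imprinted loci. Deletion of some KRAB zinc finger clusters is known to release particular retrotransposons in embryonic stem cells. Whether each member carries a KRAB domain was not analysed here.

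The total of gene counts was 11597144 and 9189672 for the oocytes with 10 cycles, 12349577 and 13806199 for those with 14 cycles, and 3017069 and 1706478 for those with 18. Portions of 1/2 had totals of 4024670 and 3598549, those of 1/4 had 4027907 and 5049518, and those of 1/8 had 11404262 and 1702062. Values are given as CPM, a gene's counts scaled to the total of gene counts in its library. The oocyte label was checked with 15 oocyte markers, from the zona pellucida genes to Gdf9, Bmp15 and the subcortical maternal complex, and all 15 had counts in each of the 12 libraries. Their summed level was 37683 and 33102 CPM at 10 cycles, 37133 and 38662 CPM at 14 cycles, 15113 and 13438 CPM at 18 cycles, 21048 and 17853 CPM in 1/2, 24868 and 26405 CPM in 1/4 and 32387 and 28528 CPM in 1/8 of an oocyte. The most abundant was Padi6, Gdf9, Zar1, H1foo or Ooep, depending on the library. Of these 15 markers 12 were called lower and 1, Zar1, higher for 18 against 10 cycles under the median ratio (median log2 difference -1.44), while under ERCC scaling 4 were higher and 0 lower. In 1/8 against whole oocytes at 18 cycles 10 were higher and 1, Zar1, lower under the median ratio (median 1.25), and under ERCC scaling all 15 were lower. The test, the call and the shares over all genes are given with the comparisons below.

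Markers of granulosa and cumulus cells, which surround the oocyte in the follicle, summed to 295 and 87.7 CPM at 10 cycles, 115 and 199 CPM at 14 cycles and 81.9 and 31.1 CPM at 18 cycles, and to 35.0 and 32.8 CPM in 1/2, 56.9 and 61.0 CPM in 1/4 and 81.8 and 77.0 CPM in 1/8. Of these 14 genes, 7 to 14 had counts in a library, and the most abundant was Cyp11a1, Nr5a2 or Cyp19a1. Among the defining genes, Fshr was at 0 in 9 of 12 libraries and Foxl2 at 0 in 7, while Inha stood at 34.1 and 0.326 CPM at 10 cycles, so the sum differed as much within the 10-cycle pair as between groups. Of 12 tested, Cyp19a1 (-1.92) and Kitl (-1.99) were called lower for 18 against 10 cycles under the median ratio and 0 in either direction under ERCC scaling. With an offset for GC content, described below, Kitl (-1.05) was not called. Of 9 tested in 1/8, Cyp19a1 was called higher under the median ratio (2.34) and all 9 lower under ERCC scaling. The 6 theca and stroma markers summed to between 0.248 and 37.6 CPM, led by Star or Dcn. Their sum was 37.6 and 2.07 CPM at 10 cycles, 8.58 and 10.8 CPM at 14 cycles and 3.31 and 0.586 CPM at 18 cycles. It was 3.48 and 0.278 CPM in 1/2, 0.248 and 1.58 CPM in 1/4 and 0.789 and 5.29 CPM in 1/8. For 18 against 10 cycles 0 of 5 tested were called under the median ratio, with a median log2 difference of -5.61. At 18 cycles only 2 and 1 of the 6 had counts. The 5 blood and endothelium markers, of which Pecam1 made up almost the whole sum, came to 45.7 and 41.5 CPM at 10 cycles, 38.8 and 49.8 CPM at 14 cycles and 7.62 and 11.1 CPM at 18 cycles. In the portions they came to 9.44 and 13.6 CPM for 1/2, 14.9 and 22.6 CPM for 1/4 and 27.4 and 24.1 CPM for 1/8, so Pecam1, like most of the oocyte markers, moved with the same groups as the members below. Its log2 difference for 18 against 10 cycles was -1.99 ± 0.32 (SE) under the median ratio, with an adjusted p of 0.000882 by edgeR's quasi-likelihood test, and 0.23 under ERCC scaling, with an adjusted p of 0.704 by the same edgeR test. The part of these transcripts in the results below was not tested.

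Of the 63 zinc finger genes, 56 had at least 1 count in the series, 30 had counts in all 12 libraries and 12 had at least 10 counts in every library. Levels of different genes were compared after division by the length of merged exons, as CPM per kilobase. On this scale the mean over the 12 libraries ran from 0 to 86.8 with a median of 0.534, and 29 of 63 genes reached 1. Zfp957 was the most abundant at 86.8 ± 38.2 (SD, n = 12) CPM per kilobase, followed by Zfp958 at 38.4 ± 24.7 (SD, n = 12), Zfp956 at 24.5 ± 10.0 (SD, n = 12), Zfp961 at 19.0 ± 4.26 (SD, n = 12) and Zfp982 at 14.0 ± 10.6 (SD, n = 12). These standard deviations span all cycle numbers and fractions, so the means of neighbouring genes in this order overlap within their spread. The order also changed with the group. At 18 cycles Zfp961 (13.2), Zfp956 (12.5) and Zfp963 (9.83) had higher means than Zfp958 (8.27), and in 1/2 Zfp961 (19.1) stood above Zfp958 (17.1). In 1/4 Zfp956 (28.2) was above Zfp958 (20.3), and Zfp982 lay below Zfp963, Zfp930 and Zfp944 in 1/2 (4.51 against 9.01, 6.52 and 5.53), while Zfp957 was highest in every group. Zfp957 alone took a median of 28.8% of the members' summed CPM.

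The members differ in their finger arrays. A script searched the coding sequence for the C2H2 pattern of spaced cysteines and histidines and found between 0 and 21 fingers a protein, with a median of 11, in proteins of 139 to 794 residues. Zfp974 carried 21 fingers, Zfp945 and Zfp976 18 each, and Zfp950 and Zfp994 17 each. The 3 proteins without a match were Zfp957, which has 567 residues, and the short models of Zfp935 and Zfp972. Zfp957, with the highest level, thus does not match the tandem-finger pattern searched here, whereas Zfp958 (13 fingers), Zfp956 (6), Zfp961 (11) and Zfp982 (7) do.

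Their positions fall on 12 chromosomes, with 16 genes on chromosome 4, 13 on chromosome 17, 11 on chromosome 2 and 8 on chromosome 7. Chromosome 4 holds 16 members between 145510759 and 147848366 (GRCm38), and a run of 10 lies on chromosome 2 between 175372436 and 178078476. Within these clusters genes share sequence: the median share of 50-base transcript windows that another gene also holds was 87.3% in the chromosome 2 cluster and 61.2% in the chromosome 4 cluster, against 7.81% in the 10 genes of the chromosome 17 cluster, 18.0% in the 4 genes of the chromosome 7 cluster (42579783 to 43192109) and 2.55% in the 4 genes of the group between 69209038 and 71993792 on chromosome 8. Reads that align equally well to several copies cannot be assigned to 1 of them, so levels of genes with a high share are uncertain.

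In all, 7 genes were at 0 counts in each of the 12 libraries, namely Zfp965, Zfp966, Zfp968 and Zfp969 on chromosome 2, Zfp987 and Zfp988 on chromosome 4, and Zfp941 on chromosome 7. A count of 0 allows up to 0.217 CPM in the deepest library and 1.76 CPM in the shallowest, from 3 counts of the total. Reads carry no molecular identifiers, so such limits and the interval given further on cover counting error only. The 6 genes on chromosomes 2 and 4 share 68.1 to 100% of their windows with other genes, so their transcripts may be present and not assigned. Zfp941 shares 5.09%, mostly with a gene model that overlaps it on the same strand, and was not detectable at this depth. Of 23 genes with less than 10% shared windows 1 was at 0 and 16 had counts in all libraries, and of 12 genes with 80% or more 5 were at 0 and 1, Zfp960, had counts in all libraries.

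**Figure D1:**
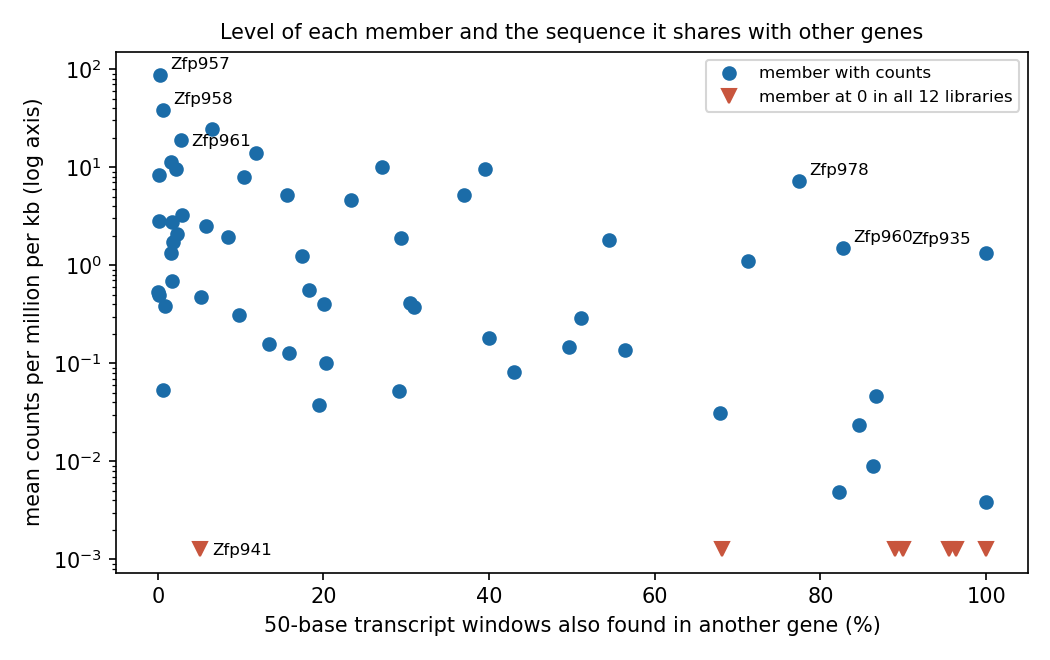
Each point is 1 of the 63 genes. The horizontal axis gives the percentage of its 50-base transcript windows also found in another gene, and the vertical log axis its mean level over 12 libraries in CPM per kilobase of merged exons. Triangles at the foot mark the 7 genes at 0 in all libraries, 6 of which lie at 68.1% or more shared windows and Zfp941 at 5.09%.

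An example of such sharing is the finger below from Zfp969, whose 78 bases occur without a difference in Zfp966, Zfp967 and Zfp968 as well. Of these 4 genes, 3 were at 0 and Zfp967 had 1 count in a 14-cycle oocyte. The stretch is coding sequence of exon 4 of 4 and is read 5′ to 3′ from the GENCODE M21 transcript, with GRCm38 coordinates. Capitals mark the codons of the paired cysteines and histidines, and the last bases encode the linker to the next finger.
Zfp969, minus strand, chr2:175693800-175693877: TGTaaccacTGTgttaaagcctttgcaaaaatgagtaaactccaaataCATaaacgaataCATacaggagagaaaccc

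Detection followed the library groups. With 10 cycles 54 and 53 members had at least 1 count, with 14 cycles 54 and 53 and with 18 cycles 41 and 35. Portions of 1/2 had 41 and 40 members with counts, those of 1/4 had 42 and 45, and those of 1/8 had 49 and 43. Total counts differ between these libraries, as given above. At the total of gene counts of the smallest library the expected number of members with counts was 46.4 and 46.2 for 10 cycles, 47.5 and 46.9 for 14 cycles and 36.4 and 35.0 for 18 cycles. It was 36.1 and 36.6 for portions of 1/2, 37.8 and 40.4 for those of 1/4 and 42.7 and 43.0 for those of 1/8. The 18-cycle whole oocytes and the 1/2 portions thus had the fewest members at an equal total of gene counts, and the 1/8 portions lay between them and the oocytes at 10 and 14 cycles. Numbers of distinct molecules were not matched. Of the other protein-coding genes, the share expected at that total was 63.0 and 60.2% for 10 cycles, 61.7 and 61.8% for 14 cycles and 58.4 and 55.3% for 18 cycles. It was 55.8 and 56.1% for 1/2, 56.8 and 57.5% for 1/4 and 56.4 and 56.4% for 1/8, so it fell with 18 cycles too and was about as low in 1/8 as in 1/2.

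The summed level of the 63 genes showed the same groups. It was 1429 and 1434 CPM at 10 cycles and 1464 and 1464 CPM at 14 cycles, against 381 and 435 CPM at 18 cycles. In the portions it was 494 and 545 CPM for 1/2, 601 and 696 CPM for 1/4 and 1220.0 and 1259.7 CPM for 1/8. The 18-cycle oocytes were lowest, no other library overlapped them, and the 1/8 portions came closest to the oocytes at 10 and 14 cycles. The 252 other protein-coding Zfp genes with 3 digits summed to between 7327 and 8425 CPM over the 12 libraries, a much narrower range. In such a sum rises and falls of single genes can cancel, and the detection of these genes also fell at 18 cycles. The GC content of protein-coding transcripts, weighted by counts, moved with the groups too, from 48.5 and 48.7% at 10 cycles to 50.5 and 50.5% at 18 cycles and 48.0 and 49.1% in 1/8, and its part in the members' levels was not tested.

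Between 14 and 10 cycles no member was called. Here and below a call is an adjusted p under 0.01 (Benjamini-Hochberg over all genes tested) by edgeR's quasi-likelihood test, with size factors by the median ratio, and genes were tested if at least 2 libraries of the fit had 5 counts. Of the 63 genes 48 were tested and 0 called, beside 0 of 17532 genes (0%). DESeq2 also called 0 members, beside 1 gene higher and 1 lower, and 0 members had an unadjusted p under 0.05 by either tool, beside 513 of 17532 genes by edgeR and 382 by DESeq2. The members' median log2 difference was 0.09, against 0.01 over all genes. The level of Zfp957 was 427 and 407 CPM at 10 cycles and 427 and 421 CPM at 14 cycles, and these pairs overlapped.

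Scaling to the ERCC molecules rests on few counts in the 18-cycle whole oocytes. These 2 libraries held 1611 and 1474 ERCC counts from 30 molecules each, with 1873 and 1158 gene counts for each ERCC count. The other 4 whole oocytes held 25528 to 39046 ERCC counts from 52 to 59 molecules, with 323 to 360.0 gene counts for each. In the portions the ratio was 439 and 344 for 1/2, 214 and 174 for 1/4 and 49.3 and 46.5 for 1/8. Every ERCC-scaled difference that involves whole oocytes at 18 cycles depends on these 2 libraries, and why their ratio is high was not tested.

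Between 18 and 10 cycles 20 of the 48 members tested fell and 0 rose under median-ratio scaling, whereas under scaling to the ERCC molecules 3 rose and 0 fell. Over all genes 10.8% were lower and 12.3% higher under the median ratio, and 8348 of 17532, or 47.6%, were higher and 0 lower under the ERCC scaling, for which 10489 genes had an unadjusted p under 0.05. DESeq2 called 21 members lower and 0 higher under the median ratio, beside 13.8% and 15.6% of all genes. The ERCC scaling moved the median log2 difference of all genes from -0.29 to 1.96. Relative to that median the members stood at -1.90 under the median ratio and -1.86 under ERCC molecules. A change of size factors shifts all genes nearly alike, so this difference hardly depends on the scaling. The members' own median was -2.19, or -1.79 with the 6 members at 0 in both 18-cycle oocytes set at the bound that 3 counts allow, and with such bounds the median of all genes was -0.07. The other Zfp genes had a median of -0.57, or -0.46 with such bounds, with 43 lower and 25 higher of 218 tested.

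The 3 genes that rose under ERCC scaling were Zfp961, Zfp963 and Zfp964, all in the small chromosome 8 group. Their log2 differences under that scaling were 1.83, 2.43 and 2.41. Under the median ratio none of them was called. The level of Zfp961 was 85.3 and 99.9 CPM at 10 cycles, 105 and 96.7 CPM at 14 cycles, 66.6 and 47.5 CPM at 18 cycles, with 91.2 and 74.8 CPM in 1/2, 61.1 and 68.1 CPM in 1/4 and 89.3 and 102 CPM in 1/8 of an oocyte. Zfp963 stood at 24.2 and 23.5 CPM at 10 cycles, 16.9 and 22.1 CPM at 14 cycles, 23.5 and 21.7 CPM at 18 cycles, with 20.9 and 20.6 CPM in 1/2, 12.4 and 16.4 CPM in 1/4 and 26.1 and 34.1 CPM in 1/8 of an oocyte. For Zfp964 the values were 18.8 and 14.9 CPM at 10 cycles, 27.1 and 16.7 CPM at 14 cycles, 19.6 and 9.38 CPM at 18 cycles, with 6.71 and 9.17 CPM in 1/2, 15.1 and 19.2 CPM in 1/4 and 18.2 and 16.5 CPM in 1/8 of an oocyte. Zfp961 and Zfp963 had the smallest ranges over the 12 libraries among the 12 genes with at least 10 counts in each, 1.15 and 1.46 on the log2 scale, followed by Zfp956 with 1.91. Merged exons of Zfp963 overlap a gene model on the same strand over 40.8% of their length, so its counts may omit reads called ambiguous.

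The largest falls under the median ratio among the 20 members called lower, with a mean of at least 20 normalised counts, were those of Zfp950, Zfp931, Zfp932 and Zfp936. For genes picked by their fall or rise, here and below, separate pairs follow largely from that choice. Zfp950 on chromosome 19 (chr19:61053840-61140840) had 75 and 122 counts with 10 cycles, 98 and 102 counts with 14 cycles and 1 and 0 counts with 18 cycles. Both 18-cycle oocytes lay below the other whole oocytes, and the summed counts gave a 44.8-fold lower CPM with a 95% exact binomial interval of 7.94 to 1777. Its adjusted p was 0.00158 by edgeR's quasi-likelihood test. Zfp931 on chromosome 2 (chr2:178067695-178078476) had 259 and 201 counts with 10 cycles, 274 and 362 counts with 14 cycles and 6 and 0 counts with 18 cycles. The 18-cycle pair was the lowest among whole oocytes, and its log2 difference was -3.92 ± 0.58 (SE), with an adjusted p of 0.000609 by edgeR's quasi-likelihood test. Under ERCC scaling the differences of Zfp950 and Zfp931 were -3.09 and -1.63, with no call. Neither gene was called lower with the GC offset. Without replicate 2 of 10 cycles or replicate 1 of 18 cycles Zfp950 was not called, with fitted log2 differences of -4.59 and -9.60. Without replicate 1 of 18 cycles Zfp931 was still called, at -10.80, and without replicate 2 at -3.25. Since the library that then remains in the 18-cycle group has 0 counts for both genes, -9.60 and -10.80 have no lower bound. In 1/8 of an oocyte Zfp931 stood at 9.56 and 10.6 CPM, against 22.3 and 21.9 CPM at 10 cycles.

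Zfp932, a repressor of endogenous retroviruses together with its sister gene Gm15446, stood at 38.5 and 25.4 CPM at 10 cycles, 25.5 and 34.3 CPM at 14 cycles, 1.99 and 4.69 CPM at 18 cycles, with 2.98 and 4.72 CPM in 1/2, 9.19 and 9.11 CPM in 1/4 and 22.6 and 27.6 CPM in 1/8 of an oocyte (chromosome 5, chr5:109996521-110010411). The 18-cycle pair was below every other whole oocyte, and the 1/8 pair overlapped the range of the oocytes at 10 and 14 cycles. Its log2 difference for 18 against 10 cycles was -3.12 ± 0.47 (SE), with an adjusted p of 0.000627 by edgeR's quasi-likelihood test. Gm15446, with which Zfp932 shares 34.9% of its windows, had 75.6 and 65.8 CPM at 10 cycles, 78.3 and 70.5 CPM at 14 cycles, 4.97 and 8.79 CPM at 18 cycles, with 10.4 and 16.4 CPM in 1/2, 8.44 and 18.8 CPM in 1/4 and 60.4 and 81.7 CPM in 1/8 of an oocyte. Gm15446 fell by 3.18 on the log2 scale between 18 and 10 cycles, with an adjusted p of 0.000101 by edgeR's quasi-likelihood test. Under ERCC scaling both remained below 0, at -0.87 and -0.95, and neither was called. Zfp936 on chromosome 7 (chr7:43114229-43192109) stood at 27.9 and 32.0 CPM at 10 cycles, 24.0 and 26.7 CPM at 14 cycles, 1.99 and 5.27 CPM at 18 cycles, with 4.72 and 6.67 CPM in 1/2, 5.46 and 11.1 CPM in 1/4 and 30.3 and 29.4 CPM in 1/8 of an oocyte. The 18-cycle pair was again the lowest among whole oocytes, and the log2 difference was -2.92 ± 0.45 (SE), with an adjusted p of 0.000739 by edgeR's quasi-likelihood test. It was not called without replicate 2 of 10 cycles (-2.78), and under ERCC scaling it was at -0.73 and not called.

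Of the 5 members with the highest CPM per kilobase, 4 were called lower under the median ratio. Under ERCC scaling Zfp957, Zfp956 and Zfp961 turned positive, and of these Zfp961 was called higher. Zfp957 on chromosome 14 (chr14:79212355-79247369) had 427 and 407 CPM at 10 cycles, 427 and 421 CPM at 14 cycles, 102 and 177 CPM at 18 cycles, with 143 and 177 CPM in 1/2, 226 and 196 CPM in 1/4 and 348 and 298 CPM in 1/8 of an oocyte. The 10-cycle and 18-cycle pairs did not overlap, and the log2 difference was -1.30 ± 0.28 (SE), with an adjusted p of 0.00492 by edgeR's quasi-likelihood test. Zfp958 on chromosome 8 (chr8:4613167-4630231) had 145 and 143 CPM at 10 cycles, 129.6 and 147 CPM at 14 cycles, 13.9 and 25.2 CPM at 18 cycles, with 41.7 and 38.9 CPM in 1/2, 36.2 and 59.6 CPM in 1/4 and 155 and 154 CPM in 1/8 of an oocyte. The 1/8 pair lay above every whole oocyte for this gene, and its log2 difference for 18 against 10 cycles was -2.66 ± 0.30 (SE), with an adjusted p of 0.000143 by edgeR's quasi-likelihood test. Zfp956 on chromosome 6 (chr6:47953390-47965300) had 100.5 and 72.9 CPM at 10 cycles, 114 and 107 CPM at 14 cycles, 43.8 and 30.5 CPM at 18 cycles, with 41.0 and 36.1 CPM in 1/2, 76.7 and 90.9 CPM in 1/4 and 97.9 and 59.9 CPM in 1/8 of an oocyte. Its log2 difference was -0.95 ± 0.23 (SE), with an adjusted p of 0.00929 by edgeR's quasi-likelihood test, and the pairs at 10 and 18 cycles did not overlap. Zfp982, in the chromosome 4 cluster (chr4:147492417-147513486), had 32.4 and 43.3 CPM at 10 cycles, 39.1 and 45.3 CPM at 14 cycles, 4.31 and 6.45 CPM at 18 cycles, with 6.46 and 6.95 CPM in 1/2, 8.69 and 9.11 CPM in 1/4 and 23.0 and 24.1 CPM in 1/8 of an oocyte. Its 18-cycle pair lay below the other whole oocytes, and the log2 difference was -2.62 ± 0.37 (SE), with an adjusted p of 0.000437 by edgeR's quasi-likelihood test. Under ERCC scaling the differences of Zfp957 and Zfp956 were 0.82 and 1.36 and those of Zfp958 and Zfp982 -0.49 and -0.42, with no call. Zfp957 was not called without replicate 1 or 2 of 10 cycles (-1.31 and -1.30). Zfp956 was called in none of the fits that left out a whole oocyte, where it lay between -1.14 and -0.74.

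**Figure D2:**
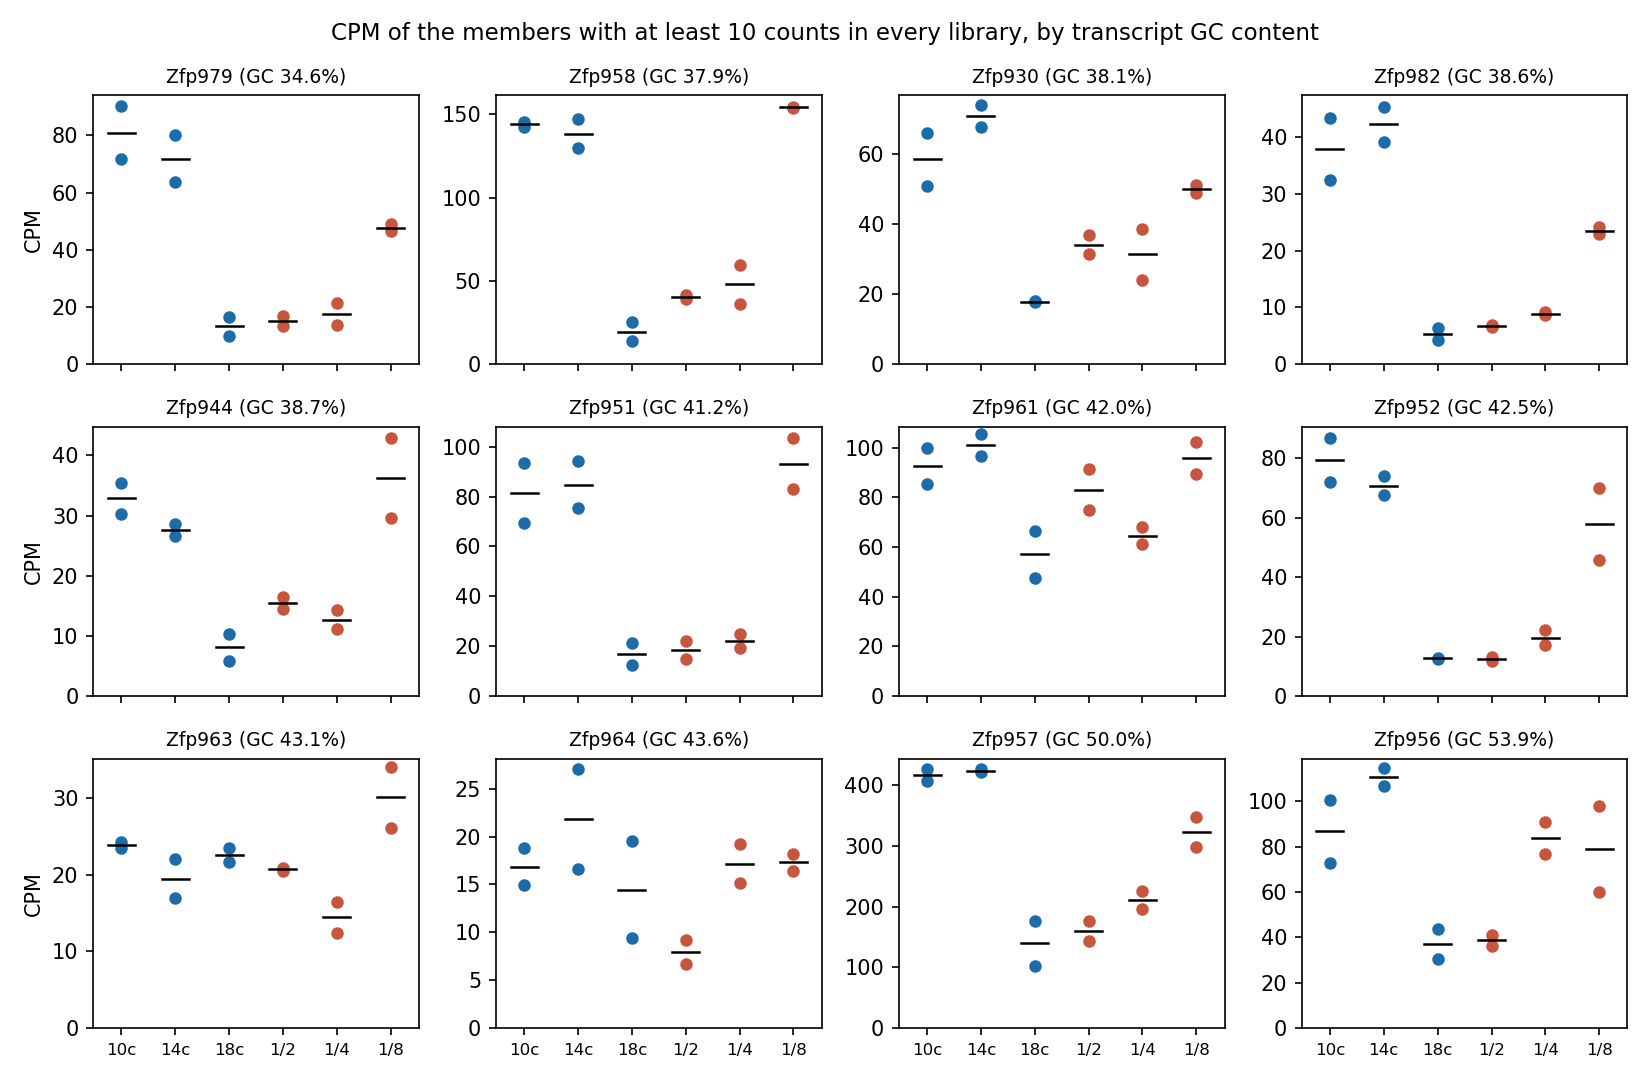
CPM of the 12 members with at least 10 counts in every library, ordered by transcript GC content, in whole oocytes at 10, 14 and 18 cycles (10c, 14c, 18c; blue) and in portions of 1/2, 1/4 and 1/8 of an oocyte (red). Points are libraries, and bars are means of 2. Zfp958 runs from 13.9 to 155 CPM, while Zfp963 stays between 12.4 and 34.1 CPM.

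The count of falls depended on the 10-cycle oocytes, as it did over all genes. It was 11 members without replicate 1 and 9 without replicate 2, beside 5.50% and 4.00% of all genes lower, and it changed with the filter and with GC content. When at least 10 counts were asked of every library, 12 members were tested and 9, or 75%, were lower, beside 22.5% of 9073 genes lower and 22.0% higher. With an offset for transcript GC content 9 of 48 were lower and 0 higher, beside 6.72% of all genes lower and 12.3% higher.

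The members are poor in G and C, a property the choice by symbol did not use. The longest transcript of the 48 members tested had a median GC content of 38.6%, from 33.2% in Zfp931 to 53.9% in Zfp956, against 46.6% in the other Zfp genes tested and 49.0% over all genes tested. Across the 48 members the log2 difference for 18 against 10 cycles had a Spearman correlation of 0.56 with GC content. This describes genes that share the same libraries. The correlation was 0.61 over the 218 other Zfp genes tested and 0.37 over 17513 genes, so it was not particular to the members. In bands of GC content, medians were taken with genes at 0 in a group set at the bound that 3 counts allow. From 30 to 36% the 5 members, of which Zfp945 and Zfp981 were at 0 in both 18-cycle oocytes, had -2.41 and the 140 other genes -0.83. From 36 to 38% the values were -2.23 for 15 members and -0.84 for 308 other genes, and from 38 to 40% -1.99 for 12 members and -0.67 for 654. From 40 to 42% they were -1.85 for 6 members and -0.62 for 1134 other genes. From 42 to 46%, which holds Zfp961, Zfp963 and Zfp964, they were -0.49 for 6 members and -0.49 for 3387 other genes. From 46 to 56% they were -1.09 for 4 members and -0.06 for 9028 other genes. Of these 4 members Zfp972 was at 0 in both 18-cycle oocytes. With the GC offset the members' median moved from -2.19 to -1.15, and that of all genes from -0.29 to -0.13. Zfp932, Zfp936, Zfp951, Zfp952, Zfp956, Zfp957, Zfp958, Zfp978 and Zfp982 were the 9 members called lower with the offset.

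**Figure D3:**
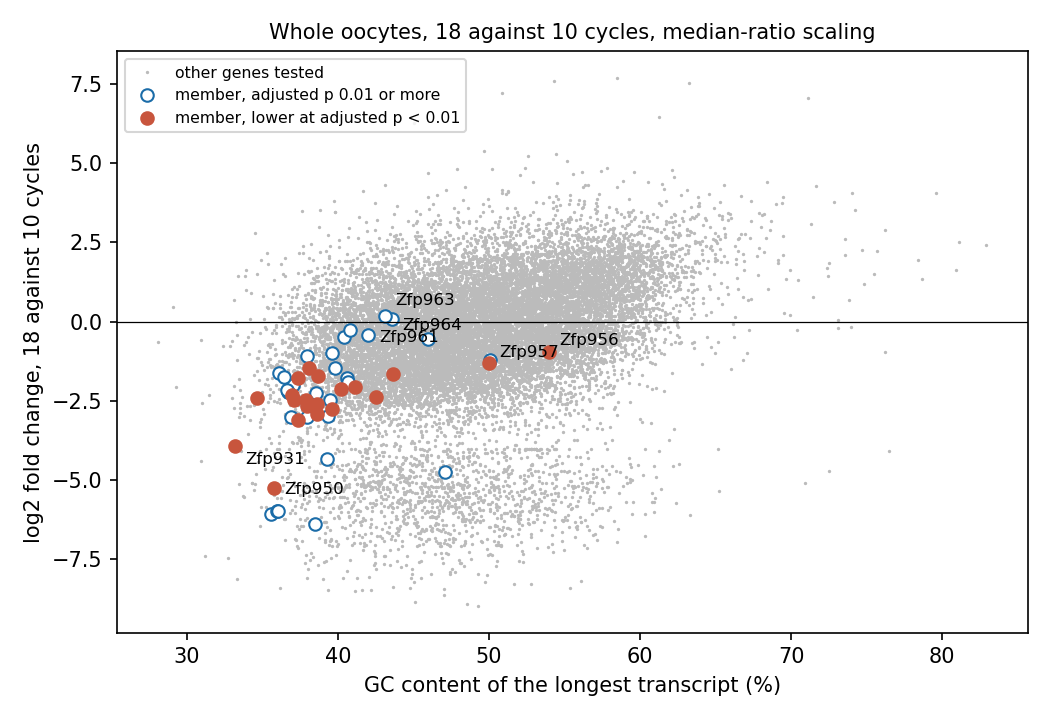
Log2 fold change of 18 against 10 cycles under median-ratio scaling (vertical axis) against GC content of the longest transcript in percent (horizontal axis), for the 48 members tested and the other genes tested. Filled points are the 20 members lower at an adjusted p under 0.01 by edgeR's quasi-likelihood test, and under ERCC scaling 0 members are lower and 3 higher. Members gather at the left, from 33.2% GC in Zfp931 to 53.9% in Zfp956.

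Single fingers show the frame that the members share and how the bases around it vary. The stretches below are the earliest finger directly followed by the conserved linker peptide in each protein, 78 bases each of the last exon, shown for the member with the lowest transcript GC content (Zfp931), for Zfp958 and Zfp943, named above or below for their differences, and for Zfp961 and Zfp956, which varied least along with Zfp963. The examples were chosen after their values were seen, and capitals mark the cysteine and histidine codons. The stretches hold 41.0% G and C in Zfp931, 32.1% in Zfp958, 41.0% in Zfp943, 42.3% in Zfp961 and 52.6% in Zfp956, and each occurs in 1 gene.
Zfp931, minus strand, chr2:178068202-178068279: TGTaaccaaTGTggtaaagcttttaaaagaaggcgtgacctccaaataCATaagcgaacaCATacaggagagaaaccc
Zfp958, plus strand, chr8:4628541-4628618: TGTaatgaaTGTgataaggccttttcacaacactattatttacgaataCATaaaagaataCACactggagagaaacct
Zfp943, plus strand, chr17:21992478-21992555: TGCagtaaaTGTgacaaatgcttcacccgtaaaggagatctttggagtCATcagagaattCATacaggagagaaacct
Zfp961, plus strand, chr8:71968410-71968487: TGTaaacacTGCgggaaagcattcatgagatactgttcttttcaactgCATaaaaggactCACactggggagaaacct
Zfp956, plus strand, chr6:47963687-47963764: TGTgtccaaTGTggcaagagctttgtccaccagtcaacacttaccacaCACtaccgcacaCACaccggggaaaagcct

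Portions of an oocyte were compared with whole oocytes at the same 18 cycles. The portions came from 2 oocytes other than those sequenced whole, so the amount of input and the oocyte cannot be told apart. The fit treats portions that share an oocyte as separate libraries. In 1/2 of an oocyte 0 of the 40 members tested were called, beside 0.122% of 14788 genes, and in 1/4 also 0, beside 0.46%. DESeq2 called 0 members in both, beside 0.697% of all genes higher and 0.331% lower in 1/2, and 0.473% and 1.16% in 1/4. At an unadjusted p under 0.05 there were 3 members in 1/2 (Zfp930, Zfp943 and Zfp958) and 5 in 1/4 (Zfp932, Zfp942, Zfp943, Zfp956 and Zfp958), all with higher values in the portion under the median ratio and lower ones under ERCC scaling. Over all 14788 genes 1943 in 1/2 and 2331 in 1/4 were under that p, or 13.1% and 15.8%, so the members' 7.5% and 12.5% were no larger. The median log2 difference of the members was 0.36 in 1/2 and 0.55 in 1/4, against -0.01 and 0.05 over all genes. Named genes in these sentences were picked after their values were seen.

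In 1/8 of an oocyte 9 of 40 members rose and 0 fell against whole oocytes under median-ratio scaling, beside 7.06% of all genes higher and 8.69% lower, whereas under ERCC scaling, given below, all members called were lower. The 9 were Zfp932, Zfp936, Zfp943, Zfp944, Zfp951, Zfp952, Zfp958, Zfp979 and Zfp982, and DESeq2 called 12 higher and 0 lower, beside 8.48% and 10.7% of all genes. Zfp943 on chromosome 17 (chr17:21962552-22071168) rose most and stood at 2.65 and 2.34 CPM in whole oocytes at 18 cycles, with 9.19 and 7.5 CPM in 1/2, 8.44 and 18.4 CPM in 1/4 and 21 and 45.2 CPM in 1/8 of an oocyte. The 1/8 pair was above both whole oocytes, and the log2 difference was 3.48 ± 0.61 (SE), with an adjusted p of 0.000307 by edgeR's quasi-likelihood test. For Zfp936 it was 2.92 ± 0.60 (SE), with an adjusted p of 0.00118 by edgeR's quasi-likelihood test. For Zfp958 it was 2.80 ± 0.38 (SE), with an adjusted p of 2.6e-05 by edgeR's quasi-likelihood test. For Zfp932 it was 2.77 ± 0.61 (SE), with an adjusted p of 0.00188 by edgeR's quasi-likelihood test. In each of these 4 genes both 1/8 libraries lay above both whole oocytes at 18 cycles. The genes were picked for their rise in this comparison, so this separation adds no support. The members' median was 1.89, against 0.03 over all genes and -0.01 over 190 other Zfp genes, of which 18 were higher and 21 lower.

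The abundant Zfp957 and Zfp956 did not pass in 1/8, at 1.00 ± 0.31 (SE) and 0.90 ± 0.34 (SE), nor did Zfp961 at 0.54 ± 0.31 (SE) and Zfp963 at 0.20 ± 0.39 (SE). Across the 40 members the Spearman correlation of the 1/8 difference with GC content was -0.62. It was -0.67 over the 190 other Zfp genes tested and -0.40 over 14776 genes. This comparison uses the same whole oocytes at 18 cycles as that of 18 against 10 cycles, so the values of both are given side by side and not as independent results. With the GC offset 4 members were higher, beside 5.19% of all genes, namely Zfp943, Zfp951, Zfp956 and Zfp958. The count was 2 without replicate 1 of the whole oocytes and 4 without replicate 2 of the 1/8 portions, and the share of all genes higher fell too, to 1.96% and 4.22%. Only Zfp943 and Zfp958 remained in the former, and the calls lost there include those of Zfp932 (2.12), Zfp936 (2.21) and Zfp982 (1.57). In the latter Zfp936, Zfp943, Zfp951 and Zfp958 remained, with Zfp932 at 2.65. Zfp982 was called in none of the fits that left out a library, where it lay between 1.57 and 2.29, and Zfp957 was called without replicate 2 of the whole oocytes (1.52), while without replicate 1 it was at 0.58. With all 6 whole oocytes as reference edgeR called 0 members and 0 of 18041 genes in any portion. At an unadjusted p under 0.05 there were 3 of 49 members in 1/8, beside 1465 genes (8.12%), 19 in 1/2, beside 15.5%, and 12 in 1/4, beside 9.49%.

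The comparison of 1/8 with 1/2 of an oocyte sets no whole oocyte against a portion. It was taken from the fit of the 8 libraries at 18 cycles, so the whole oocytes still enter its filter, size factors and estimate of spread. It was fitted under the median ratio and not tested under ERCC scaling. In it 5 of 40 members rose and 0 fell, beside 2.08% of all genes higher and 3.86% lower. By DESeq2 6 rose and 0 fell, beside 3.64% and 6.15%. They were Zfp932, Zfp936, Zfp951, Zfp952 and Zfp958, all of which are among the 20 members lower in 18 against 10 cycles (100% of the shorter list and 25% of the longer). Over all genes 293 of the 307 higher in 1/8 were among the 1898 lower at 18 cycles, or 95.4% and 15.4%, so this overlap is not particular to the members. Zfp951 on chromosome 5 (chr5:104813169-104860070) stood at 69.5 and 93.6 CPM at 10 cycles, 94.1 and 75.5 CPM at 14 cycles, 12.6 and 21.1 CPM at 18 cycles, with 14.9 and 22.2 CPM in 1/2, 25.1 and 19.4 CPM in 1/4 and 82.9 and 103 CPM in 1/8 of an oocyte. The 1/8 pair was higher than both other portions and in the range or above that of the oocytes at 10 and 14 cycles. Its log2 difference for 1/8 against 1/2 was 2.17 ± 0.39 (SE), with an adjusted p of 0.00102 by edgeR's quasi-likelihood test. Zfp952 on chromosome 17 (chr17:32993129-33005457) had 71.8 and 86.7 CPM at 10 cycles, 67.6 and 73.9 CPM at 14 cycles, 12.6 and 12.9 CPM at 18 cycles, with 11.7 and 13.1 CPM in 1/2, 22.1 and 17.0 CPM in 1/4 and 45.9 and 69.9 CPM in 1/8 of an oocyte. The 1/8 values were apart from those of 1/2, and the log2 difference was 2.05 ± 0.40 (SE), with an adjusted p of 0.00198 by edgeR's quasi-likelihood test. Those of Zfp932 and Zfp936 were 2.54 ± 0.56 (SE) and 2.23 ± 0.54 (SE). The count depended on single libraries, with 3 members without replicate 1 of 1/8, 0 without replicate 2 of 1/8, 0 without replicate 1 of 1/2 and 1 without replicate 2 of 1/2. The shares of all genes higher in these fits were 1.26%, 0.478%, 0.0684% and 0.383%, so calls were lost over all genes. Zfp932 and Zfp936 lost their calls in each of these 4 fits, with log2 differences of 2.70, 2.40, 2.27 and 2.85 for Zfp932 and 2.23, 2.26, 2.03 and 2.45 for Zfp936, which also lost it without replicate 2 of 1/4 (2.23). Zfp951 lost it without replicate 2 of 1/8 (2.01) and replicate 1 of 1/2 (1.94), and Zfp952 without those (1.73 and 2.01) and without replicate 2 of 1/2 (2.09). With the GC offset the count was 2, Zfp951 and Zfp952, beside 1.27% of all genes higher and 3.07% lower.

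Set against whole oocytes at 10 cycles, the portions gave another picture for the same genes. In 1/2 of an oocyte 13 of 49 members were lower and 0 higher, beside 6.88% of all genes lower and 9.3% higher, and in 1/4 there were 10 lower and 0 higher, beside 4.17% and 5.82%. In 1/8 edgeR called 0 members, beside 0% of 18041 genes, although 4 members and 2278 genes had an unadjusted p under 0.05. Neither DESeq2 nor ERCC scaling was run in this setting. The members' median was -1.91 in 1/2, -1.48 in 1/4 and -0.17 in 1/8. Cycle number, input and oocyte differ together here and cannot be told apart. Whether the 1/8 portions differ from the others in this respect was tested only in the comparison with 1/2.

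With ERCC molecules as the reference 8 of 40 members were lower in 1/2, beside 52% of all genes, 13 in 1/4, beside 69.7%, and 20 in 1/8, beside 87.5%, and 0 were higher. The median over all genes was -2.0 in 1/2, -2.69 in 1/4 and -4.92 in 1/8. The members' medians were -1.66, -2.12 and -3.07. Relative to all genes the members stood at 0.34, 0.56 and 1.85, a difference that rescaling leaves nearly as it is. Zfp957 had -1.75, -2.16 and -3.84 in 1/2, 1/4 and 1/8, and was called in each. Zfp963 had -2.15, -3.55 and -4.76, and was called in each. Zfp943 had -0.28, -0.53 and -1.49 and was called in none. The counts in 1/2 and 1/4 depended on single libraries, as did the shares over all genes. In 1/2 the count was 1 without replicate 1 of the whole oocytes, 5 without replicate 1 of 1/2, 1 without replicate 2 of 1/2 and 5 without replicate 1 of 1/4, beside 21.1%, 41.8%, 13.2% and 46.9% of all genes lower. In 1/4 it was 5 without replicate 1 of the whole oocytes, 6 without replicate 1 of 1/4 and 4 without replicate 2 of 1/4, beside 50.9%, 53.8% and 46.7%.

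By cluster, the counts under the median ratio were as follows, beside 10.8% of all genes lower and 12.3% higher. Medians were taken with the same bound for members at 0. In the chromosome 4 cluster 8 of 16 genes were tested between 18 and 10 cycles and 4 were lower, with a median of -1.95. On chromosome 17 all 10 of the cluster were tested and 4 were lower, with a median of -1.75. On chromosome 2, 4 of 10 were tested and 1, Zfp931, was lower, with a median of -0.37. That value rests on the bound, since Zfp972 was at 0 in both 18-cycle oocytes. Without the bound the medians were -2.20 on chromosome 2, -2.51 on chromosome 4 and -2.11 on chromosome 17. In the chromosome 7 cluster 4 of 4 were tested and 1, Zfp936, was lower, with a median of -2.37. In the chromosome 8 group 1 of 4, Zfp930, was lower, with a median of -0.18. Zfp930 had 66.0 and 50.8 CPM at 10 cycles, 67.5 and 73.9 CPM at 14 cycles, 17.9 and 17.6 CPM at 18 cycles, with 31.3 and 36.7 CPM in 1/2, 24.1 and 38.6 CPM in 1/4 and 48.8 and 51.1 CPM in 1/8 of an oocyte, and its 18-cycle pair was the lowest. Under ERCC scaling none of these falls was called, and that of Zfp930 turned to 0.80. With the GC offset the only members of these clusters called lower were Zfp978 and Zfp982 on chromosome 4 and Zfp936 on chromosome 7. Over all genes 6.72% were lower with that offset.

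Genes of the repression machinery that KRAB zinc finger proteins recruit were followed in the same fits. All 18 on the list were tested between 18 and 10 cycles, and 1 rose and 2 fell under the median ratio, or 5.56% and 11.1%, beside 12.3% and 10.8% of all genes. Under ERCC scaling 11 rose and 0 fell, beside 47.6% higher over all genes, namely Atf7ip, Cbx1, Cbx5, Chd4, Hdac2, Morc3, Setdb1, Smarcad1, Trim24, Trim28 and Uhrf1. Trim28, the corepressor itself, stood at 248 and 256 CPM at 10 cycles, 162 and 127 CPM at 14 cycles, 490.2 and 938 CPM at 18 cycles, with 126 and 249.8 CPM in 1/2, 110.5 and 131 CPM in 1/4 and 121 and 135 CPM in 1/8 of an oocyte. The 18-cycle oocytes were the highest, with a wide gap inside the pair, and the log2 difference was 1.80 ± 0.32 (SE), with an adjusted p of 0.00175 by edgeR's quasi-likelihood test. Trim28 also differed in 1/2, 1/4 and 1/8, at -2.0, -2.73 and -2.70, each called lower against the same whole oocytes under the median ratio. With the GC offset it was at -1.74, -2.48 and -1.53, and the call in 1/2 was lost. Dnmt1, the maintenance methyltransferase, had 2728 and 2821 CPM at 10 cycles, 2374 and 2611 CPM at 14 cycles, 1059 and 1036 CPM at 18 cycles, and Dnmt3a, the de novo methyltransferase, 299 and 351 CPM at 10 cycles, 305 and 325 CPM at 14 cycles, 93.1 and 85.6 CPM at 18 cycles. Both fell, by 1.14 and 1.60 on the log2 scale, while under ERCC scaling their differences were 1.08 and 0.62 and not called. Under that scaling Trim28 was higher by 3.88, and with the GC offset it was at 0.73 and not called. The offset called Cbx1 (1.34) and Hdac2 (1.42) higher under the median ratio and kept Dnmt1 and Dnmt3a lower. Without replicate 1 or 2 of 10 cycles neither Trim28 (1.74 and 1.86) nor Dnmt1 (-1.20 and -1.08) was called, and without replicate 2 of 18 cycles Trim28 was called at 1.18. Without replicate 2 of 18 cycles Cbx1 (1.07) and Trim33 (-1.15) were called. Setdb1, Atf7ip, Atf7ip2, Cbx1, Cbx3, Cbx5, Chd3, Chd4, Hdac1, Hdac2, Uhrf1, Morc3, Smarcad1, Trim24 and Trim33 did not pass under the median ratio without the offset. In 1/8, 17 of the 18 were tested, Dnmt3a rose by 1.41 and Trim28 was the 1 gene lower under the median ratio, while under ERCC scaling 16 of 17 were lower, Dnmt3a at -3.55 among them. Under ERCC scaling 14 of 17 were lower in 1/2 and 15 in 1/4, beside the shares of all genes given above. With the GC offset Dnmt1 was also higher in 1/8 under the median ratio (1.03). The call of Dnmt3a was lost without replicate 1 of the whole oocytes (1.38) or of 1/8 (1.18).

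Of 7 further KRAB zinc finger genes outside the members, 4 fell and 0 rose between 18 and 10 cycles under the median ratio, while under ERCC scaling 0 fell and Zfp57 and Zfp568 were higher. Over all genes 10.8% were lower and 12.3% higher under the median ratio, and 47.6% higher under ERCC scaling. With the GC offset 3 fell and 2 rose, since Zfp809 (-1.87) was not called and Zfp57 (1.18) and Zfp568 (1.02) were higher. The 4 were Zfp445, Zfp708, Zfp809, which silences murine leukaemia virus, and Gm15446. Zfp57 stood at 1367 and 1115 CPM at 10 cycles, 1302 and 1325 CPM at 14 cycles, 2179.6 and 1105 CPM at 18 cycles, with 1759.7 and 1738 CPM in 1/2, 1387 and 1458 CPM in 1/4 and 1439 and 1441 CPM in 1/8 of an oocyte, and did not pass at 0.65 ± 0.26 (SE). The 18-cycle pair of Zfp57 spanned the values of all the other libraries. Zfp445 had 41.3 and 42 CPM at 10 cycles, 26.1 and 20.6 CPM at 14 cycles, 7.95 and 5.27 CPM at 18 cycles and fell by 2.36 on the log2 scale. Zfp568, a repressor of a placental Igf2 transcript, and Zfp819 did not pass under the median ratio without the offset. The call of Zfp809 was lost in each fit that left out a library (-2.81 to -2.18), and Zfp57 was called without replicate 2 of 18 cycles (1.03) and was at 0.20 without replicate 1. In 1/8 of an oocyte Zfp708 and Gm15446 were higher and 0 were lower under the median ratio, beside 7.06% of all genes higher and 8.69% lower, while under ERCC scaling they were at -2.74 and -1.70, and 5 of the 7 genes were lower, beside 87.5% of all genes. Zfp708 was not called with the GC offset (1.23) or without replicate 1 of the whole oocytes (1.62).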

How the data were processed

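Raw counts per gene and ERCC molecule were deposited by the authors for 12 libraries, without deduplication. Per the processing notes, reads were trimmed with cutadapt 2.5, checked with FastQC 0.11.8, mapped to mm10 with STAR 2.7.2a and SAMtools 1.9, and counted with HTSeq 0.9.1. The methods state default parameters for HTSeq and another version, while the names of the count files point to counting without strand. Genes overlapping on opposite strands are therefore uncertain. Reads on no gene made up 6.90 to 10.8% of a library, and ambiguous reads 2.64 to 4.53%.

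A gene was fitted if 2 or more libraries held 5 counts or more, with edgeR 4.0.16 in R 4.3.3 (quasi-likelihood test, 2 libraries a group, threshold 0.01 after Benjamini-Hochberg adjustment). The 6 whole oocytes made up a fit, and the 8 libraries at 18 cycles another. Size factors came from the median ratio over genes or ERCC molecules. Alternatives were DESeq2 1.42.0, other filters, TMM, total ERCC counts, ERCC size factors, a replicate block, an offset for transcript GC content (curve span 0.3), all 12 libraries in a fit, other reference groups and leaving out each library. The GC offset with the 10-cycle reference was chosen after seeing the data. Fingers were found in coding sequences from GENCODE M21 with Python 3.11.15. Window sharing was computed over annotated transcripts, in place of the genome as first planned.

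Genes were named by rule: the 5 members with the highest length-scaled level; per comparison not ERCC-scaled, up to 4 rises and 4 falls past the threshold with at least 20 mean normalised counts; members at 0 throughout; the 3 smallest ranges of log2 CPM with at least 10 counts in every library; and the listed TRIM28 and KRAB genes. Other names were chosen after their values were seen. The members and lists were chosen with earlier results of these data known.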

Additional observations from a re-analysis of the deposited data

How the results depend on the processing

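For 18 against 10 cycles, 20 members were lower. The count was 9 with at least 10 counts in every library, where 12 members were tested, and 9 with the GC offset. Leaving out each library gave 9 to 16, beside 4.00 to 10.4% of all genes lower. With ERCC size factors 3 members were higher and 0 lower, and the members' median was 0.0944, with 25 of 48 members above 0 against 2. Values that turned positive include those of Atf7ip (2.08), Cbx5 (2.27), Chd4 (2.0), Dnmt1 (1.08), Dnmt3a (0.622), Morc3 (1.80), Setdb1 (1.56), Trim24 (1.43), Uhrf1 (2.05), Zfp956 (1.36), Zfp957 (0.821) and Zfp961 (1.83), all log2, and of these all but Dnmt1, Dnmt3a, Zfp956 and Zfp957 were called higher. The cause was not tested.

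For portions against whole oocytes under the median ratio, the reference group changed results. With the 10-cycle oocytes 13, 10 and 0 members were called in 1/2, 1/4 and 1/8, against 0, 0 and 9, and the members' medians were -1.91, -1.48 and -0.168. Adding the GC offset, chosen after seeing the data, gave 8, 4 and 0 members lower and 0 higher, with medians of -1.18, -0.782 and -0.0633. Over all genes 4.72% were lower and 10.4% higher in 1/2, 2.75% and 5.37% in 1/4, and 0% in either direction in 1/8. With all 6 whole oocytes the medians were -1.52 and -1.19 in 1/2 and 1/4, and 0 members were called in 1/8 by edgeR, with 3 of 49 at an unadjusted p under 0.05, beside 1465 of 18041 genes, against 19 and 12 in 1/2 and 1/4, beside 2788 and 1712 genes. In 1/8 the log2 differences with the 10-cycle reference, without and with the GC offset, were -0.205 and -0.144 for Dnmt3a, -0.409 and -0.312 for Zfp708, -0.302 and -0.222 for Zfp932, and -0.641 and -0.544 for Zfp982. With all 6 whole oocytes Zfp708 had -0.0355 and Zfp982 -0.259. The cause was not tested.

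The GC offset alone gave 4 members in 1/8, against 9, and 2 in 1/8 against 1/2, against 5. A fit of all 12 libraries gave 9 higher and 0 lower in the latter, beside 3.36% and 4.73% of all genes. In the fit of 8 libraries these shares were 2.08% and 3.86%. Leaving out each library gave 2 to 8 in 1/8 and 0 to 5 in 1/8 against 1/2, beside 1.96 to 6.55% and 0.0684 to 2.31% of all genes higher. Under ERCC scaling it gave 1 to 9 in 1/2, against 8, 4 to 15 in 1/4, against 13, and 16 to 24 in 1/8, against 20, beside 13.2 to 60.4%, 46.7 to 74.3% and 75.8 to 88.2% of all genes. The filter of 10 counts in every library left 12 members, all 12 called in 1/8 under ERCC scaling, beside 8329 of 8330 genes. The cause was not tested. In fits without a library the lone library of its group is assumed to vary like the others.

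Replicate numbers were also used as a block, although whether they stand for a pairing is not stated in the labels. With the block 19 members were lower for 18 against 10 cycles, 10 higher in 1/8 and 6 higher in 1/8 against 1/2, beside 12%, 7.88% and 2.79% of all genes. Block and GC offset together gave 11, 5 and 2, beside 7.53%, 5.75% and 1.56%. The differences between replicates 1 and 2 correlated across genes at -0.18 to 0.21 between groups. Under ERCC scaling the block gave 8, 13 and 19 members, beside 56.6%, 68.7% and 85.8%.

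For 14 against 10 cycles 0 members were called in each setting tried. Median detection was 44 members with at least 1 count, 33.5 with at least 5 and 41.6 at an equal total of gene counts. The highest length-scaled level, that of Zfp957, was 86.8 over merged exons and 101 over the longest transcript. Low counts limit the values of 20 of the 48 members, which had 3 counts or fewer in a group between 18 and 10 cycles.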

Other observations

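Zfp939 fits the naming pattern but is annotated as a transcribed pseudogene, so it is not among the 63 genes (GRCm38, chr7:39449518-39477413). It stood at 40.2 and 35.0 CPM with 10 cycles, 58.9 and 36.7 CPM with 14 cycles, and 3.98 and 7.03 CPM with 18 cycles. Portions of 1/2 had 8.20 and 11.4 CPM, those of 1/4 had 8.44 and 20.6 CPM, and those of 1/8 had 24.3 and 24.7 CPM. The 18-cycle pair was the lowest, and the 1/8 pair lay above the other portions. Its log2 difference for 18 against 10 cycles was -2.59 ± 0.41 (SE) under the median ratio, with an adjusted p of 0.000807 by edgeR's quasi-likelihood test. For 1/8 against whole oocytes it was 1.99 ± 0.55 (SE), with an adjusted p of 0.00995 by the same edgeR test, while under ERCC scaling it was -2.90.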
